A study of Mus musculus with 9 samples.

Results

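Layer 6 corticothalamic neurons are the excitatory cells of the deepest cortical layer that send their axons to the thalamus. Here they were selected on measured UMI counts, as glutamatergic nuclei with RNA of both Hs3st4 and Foxp2, so the levels of those genes describe the choice. A nucleus counted as glutamatergic with at least 2 UMIs (unique molecular identifiers, each 1 RNA molecule) of the glutamate transporter gene Slc17a7, at most 1 of the GABA enzyme genes Gad1 and Gad2 together and none of Prox1, a gene of dentate granule cells. A layer 6 corticothalamic neuron also had at least 5 UMIs of Hs3st4, a heparan sulfate 3-O-sulfotransferase, and at least 3 of Foxp2, a transcription factor. The rule gave 1180 nuclei, which were 14.3% of 8271 glutamatergic nuclei and 1.58% of the 74895 nuclei with 200 to 5000 genes and at most 10% mitochondrial UMIs.

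The tissue was cortex and hippocampus, combined, from 9 male wild-type C57BL/6 mice, with 1 library per mouse and 3 mice per group. The groups were young AAV-EGFP (5 months), aged AAV-EGFP (19 months) and aged AAV-B3GNT3 (19 months). Every mouse had received 8e11 viral genomes retro-orbitally 8 weeks before the tissue was taken, in the PHP.V1 capsid with a short CLDN5 promoter, which directs expression to endothelial cells. The cargo was EGFP, the control, or B3GNT3, an enzyme that elongates mucin-type O-glycans, so the neurons described here were not the intended target, and no mouse went without virus. The comparisons ask what differs with age between the EGFP groups and what differs with B3GNT3 among aged mice. By the study's methods the aged mice came from the National Institute on Aging colony and the young mice from Jackson Laboratories. Age therefore cannot be told apart from source in any comparison with the young group. Both use the aged AAV-EGFP libraries, and the third comparison sets aged AAV-B3GNT3 against young AAV-EGFP.

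These neurons form the main cortical feedback to the thalamus and also reach the thalamic reticular nucleus and cortical layer 4. TBR1, a T-box transcription factor, sets their identity during development by repressing the programme of neurons that project to the spinal cord and brainstem. FOXP2, TLE4 and SOX5 are further regulators found in them in the adult. Their main inputs include axons that release glutamate, acetylcholine and monoamines, and activity in them induces immediate-early genes such as those of the EGR and FOS families.

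The mice gave 121, 154 and 172 of these neurons in young AAV-EGFP replicates 1, 2 and 3, 100, 187 and 187 in aged AAV-EGFP, and 83, 82 and 94 in aged AAV-B3GNT3. No barcode of theirs occurred in more than 1 library. The UMIs summed per mouse ran from 859009 to 2517152, and the median per neuron from 9978 to 14207.5. Median Hs3st4 ran from 35.5 to 58 UMIs per neuron and median Foxp2 from 6 to 11, so that Foxp2 set the edge of the rule. At that edge, 122 neurons held exactly 3 UMIs of Foxp2, while 145 nuclei with enough Hs3st4 held 2 and were left out. The limit of 5000 genes left out 151 further nuclei that met the rule, 3.11 to 14.2% per mouse in the EGFP groups and 17, 6.82 and 25.4% in aged AAV-B3GNT3. A doublet score marked 88 of the neurons, which were kept.

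The label was checked against marker genes that the rule did not use, as the share of nuclei with at least 1 UMI in each mouse. The median over 9 mice was 40.9% for Tbr1 in these neurons and 20.1% in the other glutamatergic nuclei. For Tle4, a corepressor, it was 96.4% and 46.1%, and for Zfpm2, a zinc finger cofactor, 96.4% and 45.4%. Syt6, which encodes a synaptotagmin, separated the populations most, with 58.5 to 69.9% of these neurons and 2.08 to 5.48% of the others. Garnl3 (99.5% against 75.7%), Sox5 (97.9% against 79.1%) and Fezf2 (21.9% against 8.12%) also stood higher. Ntsr1, the neurotensin receptor gene used to target these neurons in mice, was found in only 9.76% of them and in 6.46% of the others.

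Markers listed for other excitatory neurons went both ways. Of the near-projecting deep-layer genes, Tshz2 (12.8% here against 19.7% in the others), Vwc2l (11.2% against 15.7%) and Lypd1 (4.82% against 9.98%) were lower here. Slc17a8 (1.20% against 0.29%) and Trhr (2.48% against 2.04%) were higher. Of the deep intratelencephalic genes, Col24a1 (8.54% against 6.66%) and Rxfp1 (18.3% against 16.4%) were higher here, and Oprk1 (1% against 5.80%) and Osr1 (0 against 1.17%) lower. Of the 5 genes listed for layer 5, Bcl11b was found in 90.2% of these neurons and 49.6% of the others, while Pou3f1 (1.60% against 8.36%), Bcl6 (2.67% against 13.1%), Fam84b (0 against 1.42%) and Erg (0 against 1.12%) were lower here. Of the genes listed for hippocampus, Grik4 was found in 94.7% against 62.4%. Calb1 (1.60% against 16.9%), Wfs1 (2.14% against 7.98%), Fibcd1 (0 against 3.69%) and Spink8 (3.49% against 4.69%) of that list were lower here. Rora, listed for thalamus, was close in both, at 98.3% and 98.1%. Cux2, of upper layers, was found in 5.23% of these neurons against 46.8% of the others, and Rasgrf2 in 11.6% against 54.2%. Slc17a6, of thalamus, was found in 3.66% against 9.96%. Of the layer 6b genes, Cplx3 was at 1.20% against 0.683%, Nxph4 at 1.07% against 0.435% and Svil at 10.5% against 5.91%. Ctgf was at 5% against 2.41%, and Moxd1, the only 1 of the 5 that was lower here, at 1.95% against 2.34%. In all, 54 of the 1180 neurons (4.58%) held UMIs of at least 2 such genes, 2.44 to 6.49% per mouse here and 1.14 to 2.30% in the others. Median depth was close in both populations, at 9978 to 14207.5 UMIs here and 10193.5 to 14118 in the others. The summed level of 11 glial genes that neurons lack was 107 to 135 counts per 1000000 UMIs (CPM) in young AAV-EGFP, 59.6 to 151 in aged AAV-EGFP and 99.6 to 182 in aged AAV-B3GNT3, and the groups overlapped. Some other lists, summed likewise, parted the EGFP groups. Interneuron markers were at 109 to 133 CPM in young and 73.5 to 106 in aged AAV-EGFP, and the hippocampal list at 345 to 390 and 398 to 431. The layer 5 list (275 to 350 and 215 to 224) and the striatal list (2047 to 2085 and 1126 to 1888) were parted too. Each of these lists holds a gene found in many of these neurons: Adarb2 (40.2%), Grik4 (94.7%), Bcl11b (90.2%) and Pde10a (100%). Adarb2 alone was at 80.1 to 105 CPM in young and 44.9 to 87.6 in aged AAV-EGFP. Without Pde10a the striatal list was at 56.1 to 72.8 and 51.0 to 65.9 CPM, with overlap. The sums are therefore no measure of other cell types alone. The part of these lists in the age results was not tested. Of the 13 lists of markers for other cell types, 2 genes of the hippocampal list (Prox1, which the rule set to 0, and Iyd) were at 0 in every mouse.

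**Figure D1:**
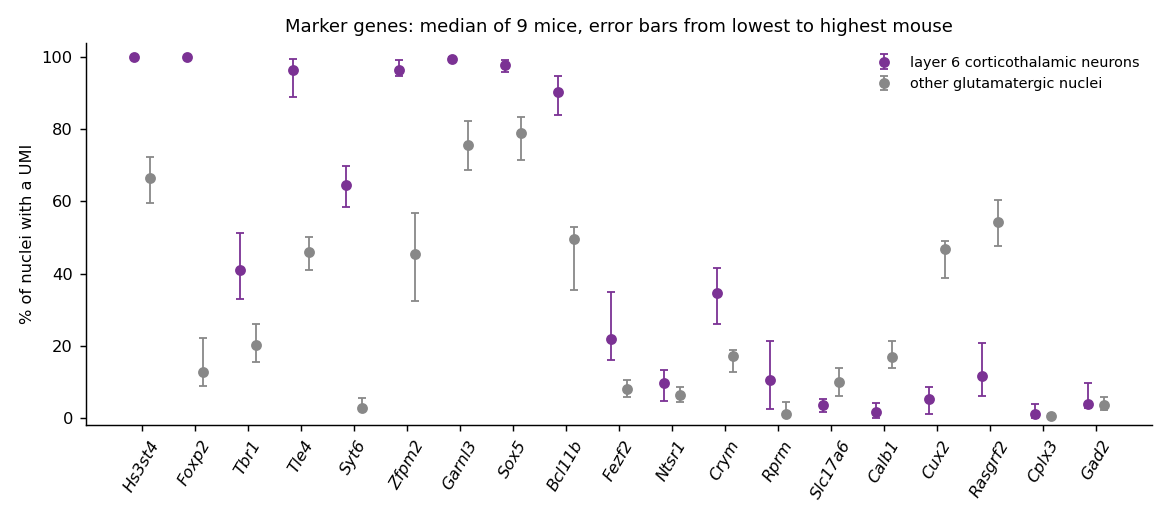
Share of nuclei with at least 1 UMI (y axis, percent) of 19 marker genes (x axis) in layer 6 corticothalamic neurons and in the other glutamatergic nuclei, as the median of 9 mice with the lowest and highest mouse. Hs3st4 and Foxp2 are at 100% by the rule; Syt6 is at 64.5% against 2.85% and Cux2 at 5.23% against 46.8%.

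Beyond those markers, many genes differed in level between these neurons and the other glutamatergic nuclei. The values are ratios of levels within each mouse, on the log2(CPM + 1) scale, given as a description since the rule sorted the same nuclei. Of 2506 genes at 50 CPM or more here in every mouse, 54 were at least 2 times higher than in the others in all 9 mice, and 110 genes at 50 CPM or more in the others were at least 2 times lower here. After Foxp2 (median log2 ratio 5.83) and Syt6 (4.79) came Col5a1, a fibrillar collagen chain (3.23), Zfpm2 (2.86), Arhgap25 (2.69), Tle4 (2.57), Hs3st4 (2.51) and Cdh18, a cadherin (2.49). Further down were Cntnap4, a contactin-associated protein (2.23), Grik3, a kainate receptor subunit (2.08), and Sema5a, a semaphorin (2.04). Among the fixed lists, Ephb1 (1.98), Sema5b (1.69), Nrp1 (1.46), Grm8, an inhibitory metabotropic glutamate receptor (1.29), and the heparan sulfate genes Hs3st5 (1.68) and Sulf1 (1.64) were raised at least 2 times in every mouse.

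Several channel and guidance genes were as clearly low. Cacna2d3, an auxiliary calcium channel subunit, had a median log2 ratio of -2.94, and Cacna1g, a T-type calcium channel, -2.29. The potassium channel genes Kcnb2 (-2.16), Kcnc2 (-2.08), Kcnip4 (-1.86) and Kcnq5 (-1.79) were low as well, with medians for Kcnq5 of 645 CPM here and 2510.3 in the others. Of the guidance genes, Epha6 was at -3.43, Ntng2 at -3.31, Ntng1 at -3.23 and the netrin receptor gene Unc5d at -3.05. The GABA-A receptor subunit gene Gabra2 was at -1.87 and the heparan sulfate 6-O-sulfotransferase gene Hs6st3 at -3.18. Near-projecting nuclei (738 with at least 5 UMIs of Tshz2) were close to the others in Kcnq5 and Syt6, with Kcnq5 at a median of 2360.3 CPM and Syt6 at 2.42 CPM. Deep intratelencephalic nuclei (224 with at least 3 UMIs of Col24a1 and Oprk1 together) shared the low Epha6 (215 CPM, against 179 here and 1451 in all the others). They also shared the raised Thsd7b (594 CPM, against 832 here and 168), Sema5a (153, 181 and 34.6), Sulf1 (143, 159 and 48.3) and Sema5b (187, 90.99 and 24.2). Ntng1 was low there too (56.2 CPM, against 261 in all the others). Not shared were the raised Syt6 (3.65 CPM, against 122 here) and Nrp1 (25.9, against 377), and the low Kcnq5 (2161.6, against 645).

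The mean share of glutamatergic nuclei that these neurons made up was highest in aged AAV-EGFP mice, but the test over the 3 groups missed 0.05 after adjustment. In young AAV-EGFP the shares were 12.4% (exact 95% binomial interval 10.4 to 14.6), 13.6% (11.6 to 15.7) and 15.8% (13.7 to 18.1). In aged AAV-EGFP they were 14.4% (11.8 to 17.2), 18.2% (15.9 to 20.7) and 21.3% (18.7 to 24.2). In aged AAV-B3GNT3 they were 12.4% (10.0 to 15.1), 8.89% (7.14 to 10.9) and 10.6% (8.69 to 12.9). Every aged AAV-B3GNT3 mouse lay below every aged AAV-EGFP mouse, while the EGFP groups overlapped. The intervals cover counting error only.

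Means were 13.9% ± 1.75 (SD, n = 3), 18% ± 3.48 and 10.6% ± 1.76, and F, compared exactly over all 280 ways to part the 9 mice into 3 groups (a two-sided permutation test), gave p = 0.0429. After Benjamini-Hochberg adjustment over 3 such tests it was 0.0643. For pairs of groups the smallest p that 3 mice against 3 allow is 0.1; the exact test gave 0.1 for aged AAV-B3GNT3 minus aged AAV-EGFP (-7.32 percentage points) and 0.2 for aged minus young AAV-EGFP (4.04). Since the rule counts UMIs, each nucleus was also thinned to 5000 UMIs, leaving out 16 to 66 glutamatergic nuclei per mouse as too shallow. The whole rule was then applied to the thinned counts, which left 212 to 407 glutamatergic nuclei and 19 to 51 of these neurons per mouse. The shares were then 6.76, 10.3 and 8.73% in young AAV-EGFP, 11.3, 16.0 and 16.2% in aged AAV-EGFP and 8.96, 7.2 and 9.30% in aged AAV-B3GNT3. All aged AAV-EGFP mice were above the other 6 (exact permutation p = 0.0357, adjusted 0.0643, two-sided), and leaving out any young AAV-EGFP or aged AAV-B3GNT3 mouse took p above 0.05 (up to 0.0714). Thinned to 3000 UMIs, with 6 to 12 neurons left per mouse, the shares were 5.75, 5.64 and 6.15% in young AAV-EGFP mice, 5.83, 7.41 and 5.84% in aged AAV-EGFP mice and 5.88, 3.69 and 7.69% in aged AAV-B3GNT3 mice. The groups then overlapped (exact permutation p = 0.868), so the order seen at 5000 UMIs was not seen at 3000. Median UMIs per neuron gave p = 0.8 in the same exact permutation test. As a share of all nuclei kept, the neurons were at 1.33 to 2.86%, 1.39 to 2.29% and 0.819 to 1.35%, with p = 0.246 (exact permutation test) and a difference between EGFP groups of -0.0681 percentage points, so that the age difference turned with the denominator. For the share of glutamatergic nuclei as counted, leaving out any 1 mouse gave an exact permutation p between 0.00714 and 0.0857. That p rose above 0.05 without aged AAV-EGFP replicates 2 or 3, aged AAV-B3GNT3 replicates 2 or 3, or young AAV-EGFP replicate 2.

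**Figure D2:**
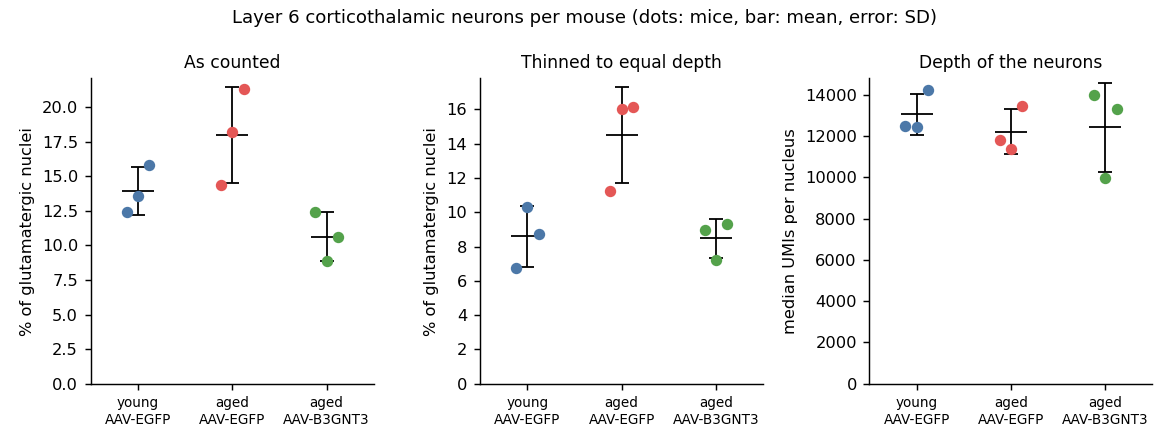
Layer 6 corticothalamic neurons per mouse: percent of glutamatergic nuclei as counted (left), the same with every nucleus thinned to 5000 UMIs (middle) and median UMIs per neuron (right), with dots for mice, bars for means and error bars for SD (n = 3). In the middle panel the aged AAV-EGFP mice, at 11.3 to 16.2%, lie above the other 6, at 6.76 to 10.3%, which was not so at 3000 UMIs (exact permutation p = 0.868), while the depth of the neurons overlaps among all groups.

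Age was tested on UMIs summed over the neurons of each mouse, in 1 edgeR quasi-likelihood fit of all 9 mice over 10207 genes. Of these, 423 passed an adjusted p of 0.05 (Benjamini-Hochberg), which is 4.14% of the genes tested, with 211 higher and 212 lower in aged AAV-EGFP. Between the EGFP groups 25.2% of genes did not overlap. With 1 mouse left out the number of calls lay between 88, when it was replicate 3 of young AAV-EGFP, and 697, when it was replicate 1 of aged AAV-EGFP. It was 91 and 111 when replicates 2 and 3 of aged AAV-EGFP were dropped, and 162 and 231 when replicates 2 and 1 of young AAV-EGFP were. Subtracting an estimate of free RNA left 28 or 169 calls, depending on the markers that set its size. The profile subtracted was the sum over all barcodes of the library, these neurons included, so it held neuronal RNA too. It took 30.2 to 46.8% of the neurons' UMIs per mouse with the first markers and 7.44 to 22.2% with the narrower. In the calls lost, free RNA and the neurons' own RNA cannot be told apart. Of 60 genes that the naming rules took from any of the comparisons and that passed with age, 6 passed under every setting and left-out mouse that gave them a value: Adra1a, Dpp4, Cbfa2t3, Ubash3b, Prrt1 and Sema3e. The calls of 38 and 37 of the 60 were lost without aged AAV-EGFP replicates 2 and 3, and 45 and 37 with the first subtraction of free RNA and with Tbr1 required. Levels below are CPM with each mouse's total scaled by TMM.

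Those 6 genes included a receptor, a peptidase and a guidance ligand. Adra1a, the alpha-1A adrenergic receptor gene through which noradrenaline acts (chr14:66635251-66771168), was at 12.6, 19.8 and 7.52 CPM in young AAV-EGFP mice and 46.5, 36.6 and 32.3 in aged AAV-EGFP mice. All aged AAV-EGFP mice were above all young ones, and the log2 fold change was 1.54 ± 0.27 (SE), with adjusted p = 0.00775 by edgeR. In aged AAV-B3GNT3 it was at 13.2, 15.6 and 15.6 CPM, below every aged AAV-EGFP mouse (log2 fold change -1.35, adjusted p = 0.0674 by edgeR). Dpp4, a dipeptidyl peptidase at the cell surface (chr2:62330073-62412231), was at 18.9, 25.3 and 21.7 CPM in young AAV-EGFP, 69.4, 50.4 and 49.1 in aged AAV-EGFP and 70.4, 45.7 and 61.4 in aged AAV-B3GNT3. Both aged groups stood apart from the young group, and the log2 fold changes against it were 1.32 ± 0.20 (adjusted p = 0.00307) and 1.44 ± 0.21 (adjusted p = 0.00688 by edgeR).

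Cbfa2t3, a transcriptional corepressor (chr8:122625141-122699109), was at 47.8, 39.0 and 50.6 CPM in young and 16.1, 14.8 and 8.18 in aged AAV-EGFP. The groups did not overlap, and it fell by 1.88 on the log2 scale (SE 0.26, adjusted p = 0.00307 by edgeR). Ubash3b, a phosphatase of signalling receptors, was at 60.3, 44.5 and 36.8 CPM in young and 11.0, 17.8 and 13.6 in aged AAV-EGFP, and it fell by 1.69. Prrt1, a transmembrane protein associated with AMPA receptors, fell by 1.23, from 61.6, 46.7 and 68.1 CPM to 25.4, 23.7 and 26.1. Its aged AAV-B3GNT3 mice, at 24, 32.3 and 24.1 CPM, were also below every young mouse. Sema3e, a secreted semaphorin that binds plexin-D1 (chr5:14025276-14256689), fell by 1.18, from 188, 253 and 165 CPM to 92.2, 102 and 73.6. It too was low in aged AAV-B3GNT3, at 88.6, 126 and 81.7 CPM, and it passed in that group against young AAV-EGFP (log2 fold change -1.05, adjusted p = 0.0247 by edgeR).

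The other large rises with age included Nmnat3, an NAD synthesis enzyme (log2 fold change 1.73), and Fgf1, a growth factor (1.53). Others were Gapdh, a glycolytic enzyme (1.71), Tmsb10, an actin-binding thymosin (1.65), Tubb2a, a tubulin (1.52), Rab3a, a synaptic vesicle GTPase (1.54), and Pcp4, a calmodulin-binding peptide (1.48). Fgf1 was at 16.3, 15.9 and 16.7 CPM in young and 55.0, 45.0 and 43.6 in aged AAV-EGFP, with no overlap. Npcd (1.85) also passed, but its annotated span holds Nptxr and Cbx6 on the same strand, so its counts are uncertain, and Klhl10 was at 1.67. The other large falls were Cobll1 (-1.72), Kcnh4, a potassium channel (-1.41), Egr3 (-1.40), Lamc1, a laminin chain (-1.36), Trib2 (-1.29), Plppr1 (-1.25), Arid3b (-1.25) and Slc5a3, a myo-inositol transporter (-1.24). Slc5a3 shares its strand and span with Mrps6. The direction held for each of these genes under every setting tried, but each call was lost under some. Nmnat3 and Fgf1 lost theirs under 1 of 21, Rab3a, Npcd and Klhl10 under 5 of 21 and Slc5a3 under 6 of 21. Plppr1 lost its call under 6 of 18, Cobll1 under 7 of 20, Pcp4 and Trib2 under 7 of 21 and Arid3b under 8 of 21.

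Some immediate-early genes, which neurons induce within minutes of activity, fell in aged AAV-EGFP neurons. Of 19 listed genes 15 were tested; 3 fell (Homer1, Egr3 and Fosl2) and none rose, against 2.08% of all genes that fell. Their median log2 fold change was -0.46, beside 0.01 over all genes, and 12 of the 15 values were negative. Homer1, a postsynaptic scaffold gene (chr13:93299635-93405129), was at 862, 1270.5 and 873 CPM in young and 552, 372 and 381 in aged AAV-EGFP. The groups did not overlap and it fell by 1.21 on the log2 scale (SE 0.18, adjusted p = 0.00307 by edgeR). Counts are per gene, so its short activity-induced form cannot be told apart from the long one. Egr3, a zinc finger transcription factor (chr14:70077203-70082614), fell by 1.40, from 35.8, 28 and 37.6 CPM to 11.8, 8.89 and 16.8 (adjusted p = 0.00813 by edgeR). Fosl2, an AP-1 subunit (chr5:32135801-32157842), fell by 1.35 but with few UMIs, at 10.7, 9.34 and 12.1 against 5.08, 3.46 and 4.28 CPM (adjusted p = 0.0455 by edgeR). Without aged AAV-EGFP replicate 2 the calls of Egr3 and Fosl2 were lost. That of Fosl2 was also lost without replicate 3 of that group or any 1 young AAV-EGFP mouse. Over the settings, Fosl2 lost its call under 8 of 19, Egr3 under 3 of 21 and Homer1 under 1 of 21. Arc (-1.06, adjusted p = 0.0616) did not pass, and Fos (0.03) and Junb (0.39) had positive values.

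In aged AAV-B3GNT3 neurons the same list lay near its young level. Homer1 was at 732, 953 and 666 CPM there, above every aged AAV-EGFP mouse (log2 fold change 0.85, adjusted p = 0.0606 by edgeR), and Egr3 at 40.6, 37.9 and 25.7 CPM, likewise above (1.42, adjusted p = 0.0408). The summed level of the 15 genes was 1280, 1619 and 1320 CPM in young AAV-EGFP, 878, 579 and 718 in aged AAV-EGFP and 1225, 1393 and 1152 in aged AAV-B3GNT3. The aged AAV-EGFP mice were the 3 lowest, and the other groups overlapped. Homer1 was the largest part of that sum (732 of 1225, 953 of 1393 and 666 of 1152 CPM in aged AAV-B3GNT3), so the sum mostly follows 1 gene. The median log2 fold change of the list with AAV-B3GNT3 was 0.85, with 1 gene (Egr3) past the threshold, against 0.0392% of all genes that rose. The 2 comparisons share the aged AAV-EGFP mice, so a low value there enters both. In aged AAV-B3GNT3 against young AAV-EGFP the median was 0.10, with 10 of the 15 values positive, and no gene of the list passed.

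Starts of Homer1 and Fosl2, 2 of the 3 immediate-early genes that fell, are shown; Egr3 has no entry. They are shown because CREB, a factor that drives activity-dependent transcription, binds the cAMP response element, whose core is TGACG. The windows are RefSeq sequences of GRCm38.p6 from 250 bases before to 50 bases after an annotated start, on the strand of the gene. TGACG was searched on both strands and is in capitals; it was found in 20.8% of 32851 such windows and in 15 of 26 windows of the 15 listed genes with an entry, several of which are overlapping starts of 1 gene. For Homer1 (chr13:93303507-93303806 and chr13:93307784-93308083, plus strand) the upstream start held TGACG 3 times, as 1.03% of all windows did at least, and the other none. For Fosl2 (chr5:32136222-32136521, plus strand) no match was found. A match is a description of these letters only.
Homer1 upstream start: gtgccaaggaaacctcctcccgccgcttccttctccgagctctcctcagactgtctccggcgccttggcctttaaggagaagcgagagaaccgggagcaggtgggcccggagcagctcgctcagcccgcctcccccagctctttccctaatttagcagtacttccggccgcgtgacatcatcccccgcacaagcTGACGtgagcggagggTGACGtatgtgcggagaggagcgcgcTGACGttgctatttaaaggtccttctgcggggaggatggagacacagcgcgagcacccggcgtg
Homer1 second start: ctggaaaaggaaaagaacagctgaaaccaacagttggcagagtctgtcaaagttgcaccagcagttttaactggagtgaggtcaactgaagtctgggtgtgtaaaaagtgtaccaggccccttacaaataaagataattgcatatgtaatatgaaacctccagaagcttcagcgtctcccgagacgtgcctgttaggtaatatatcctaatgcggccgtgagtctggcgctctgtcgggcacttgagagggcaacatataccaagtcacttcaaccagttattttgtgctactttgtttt
Fosl2: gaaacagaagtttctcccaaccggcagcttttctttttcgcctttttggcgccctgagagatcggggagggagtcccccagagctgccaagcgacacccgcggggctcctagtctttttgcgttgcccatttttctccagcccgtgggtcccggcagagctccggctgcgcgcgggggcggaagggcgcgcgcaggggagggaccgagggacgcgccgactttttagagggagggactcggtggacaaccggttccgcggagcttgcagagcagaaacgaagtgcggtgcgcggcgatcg

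Ion channel and guidance genes are given beside all genes tested, of which 2.08% fell and 2.07% rose with age. Of 49 potassium channel genes tested, 6 fell and none rose: Kcna1, a delayed rectifier (83.6, 73.6 and 102 CPM in young, 39.8, 50.4 and 52.6 in aged AAV-EGFP, log2 fold change -0.84), Kcnip3 (-1.07), Kcnd3, an A-type channel (-0.66), Kcnmb4 (-0.61), Kcnh4 (-1.41) and Kcnh5 (-0.74). The list's median was -0.15. Of 30 sodium and calcium channel genes, 4 fell and none rose. Of these, Cacng8 (-0.79), Cacng2 (-0.72) and Cacng3 (-1.03) encode transmembrane proteins that traffic AMPA receptors rather than calcium channel subunits, and Cacna1i (-0.75) encodes a T-type channel. Without aged AAV-EGFP replicate 2 the calls of all 4 were lost, as were those of Kcnip3, Kcnd3, Kcnmb4, Kcnh4 and Kcnh5. Kcna1 kept its call there and lost it without young AAV-EGFP replicate 3. Of 48 axon guidance genes, 5 fell and none rose, namely Sema3e, Unc5d (-1.08), Ephb2 (-0.87), Sema7a (-0.73) and Efna5, an ephrin (519, 480.1 and 527 against 320, 301 and 361 CPM, -0.63). The call of Unc5d was lost under 11 of 20 settings, and those of Sema7a, Ephb2 and Efna5 under 11, 5 and 1 of 21. Sema3e kept its call under all 21.

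Among receptor, release and adhesion genes the counts below stand beside 2.07% of all genes that rose and 2.08% that fell. None of the 13 AMPA, NMDA and kainate receptor genes and none of the 11 GABA-A receptor genes passed with age in the edgeR test, with medians of 0.07 and 0.14. Of 6 metabotropic glutamate receptor genes Grm4 fell (-1.10), of 16 cholinergic and monoamine receptor genes Adra1a rose, and of 31 vesicle release genes that the rule did not use Sv2c fell (-1.13). One of 23 cadherins (Cdh7, 1.24) and 1 of 21 heparan sulfate genes besides Hs3st4 (Sulf1, an extracellular 6-O-endosulfatase, 0.60) rose. The calls of Sv2c and Cdh7 were lost under 9 and 5 of 20 settings, and those of Grm4 and Sulf1 each under 8 of 21. Of 11 heat shock genes Hsph1 (-1.04) and Hsp90b1, a chaperone of the endoplasmic reticulum (-1.19), fell. Hsph1 was at 67.2, 77.5 and 78.6 CPM in young, 36.4, 33.6 and 38.6 in aged AAV-EGFP and 55.5, 69.1 and 56.8 in aged AAV-B3GNT3, with no overlap between the EGFP groups. Among the 10 tested identity genes that the rule did not use, Syt6 alone passed with age (-0.50, adjusted p = 0.0438 by edgeR), from 155, 148 and 179 CPM to 110.0, 123 and 107, and that call was lost under 13 of 21 settings, including each left-out young or aged AAV-EGFP mouse. Bcl11b, the layer 5 gene found in most of these neurons, also fell (-0.49, adjusted p = 0.0308 by edgeR), from 344, 282 and 308 CPM to 220.0, 233 and 214, with its call lost under 7 of 21 settings.

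Genes of ribosomes and mitochondria leaned the other way. Of 71 cytosolic ribosomal protein genes, 69 had a positive log2 fold change with age, with a median of 0.64, and 5 rose (Rpl41, Rpl28, Rps16, Rps15 and Rpl13), against 2.07% of all genes. Of 59 nuclear oxidative phosphorylation genes, 54 were positive, with a median of 0.43. Among the 59, 2 rose (Ndufa4, 1.23, and Atp5a1, 0.84), beside 2.07% of all genes. Over all genes tested, 5224 of 10207 values were positive, with a median of 0.01. The summed ribosomal level was 589, 635 and 666 CPM in young AAV-EGFP mice and 652, 1089.7 and 1097 in aged AAV-EGFP mice. Aged AAV-EGFP replicate 1 was thus within the young range, and replicates 2 and 3 were above it. Mitochondrially encoded genes held 0.00159, 0.0035 and 0.00628% of UMIs in aged AAV-EGFP mice, 0.0015 to 0.00271% in young AAV-EGFP mice and 0.00156 to 0.0021% in aged AAV-B3GNT3 mice. Replicates 2 and 3 of aged AAV-EGFP were thus the highest in both measures, and the part of this in the ribosomal rise was not tested. In aged AAV-B3GNT3 the sum was 627, 565 and 635 CPM, and the median log2 fold change against aged AAV-EGFP was -0.72 for ribosomal and -0.49 for oxidative phosphorylation genes, with Ndufa4 alone past the threshold. The share of UMIs put down to free RNA by glial genes was 18.9, 20.3 and 7.44% in aged AAV-EGFP, 16.0, 20.6 and 16.2% in young AAV-EGFP mice and 11.8, 22.2 and 14.7% in aged AAV-B3GNT3, with overlap among the groups. With free RNA subtracted by those genes, Rpl41 passed (log2 fold change 1.65), but not with the first subtraction (2.07, adjusted p = 0.0515 by edgeR). Ndufa4 (1.27), Atp5a1 (0.93), Rps16 (1.41), Rps15 (1.19) and Rpl13 (1.14) no longer passed with those genes, and Rpl28 was not tested.

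**Figure D3:**
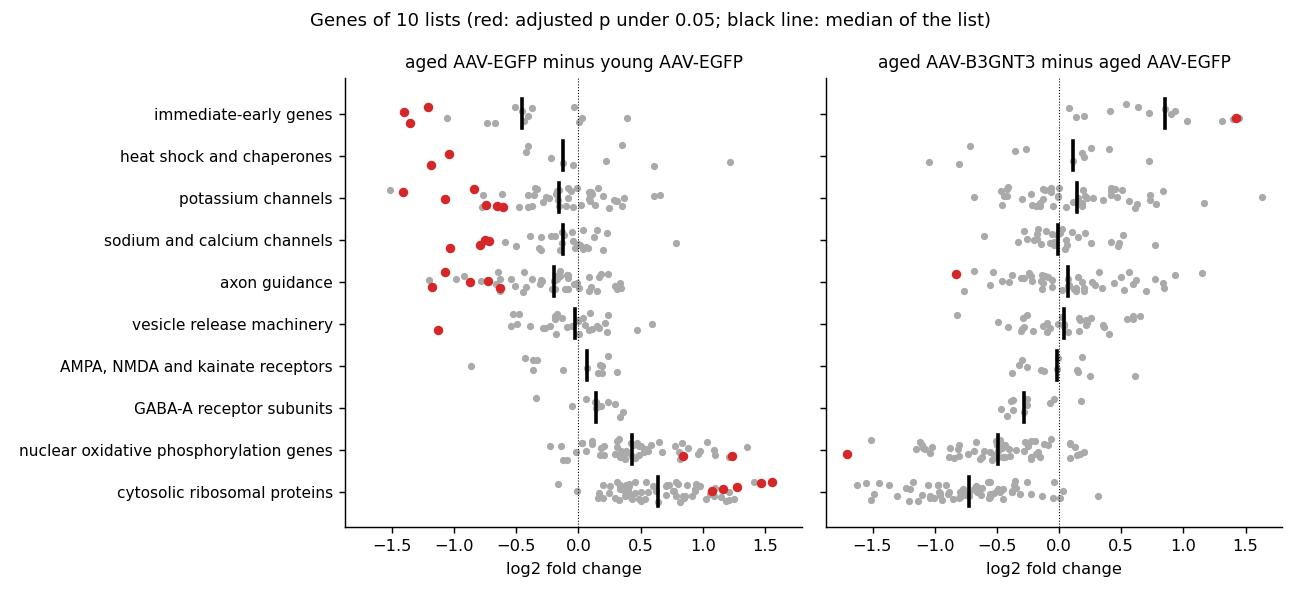
Log2 fold change (x axis) of each gene tested in 10 lists (y axis) with age (left) and with AAV-B3GNT3 in aged mice (right), with red dots for genes past an adjusted p of 0.05 by edgeR and black lines for medians. Immediate-early genes have a median of -0.46 on the left and 0.85 on the right, and cytosolic ribosomal genes 0.64 and -0.72; both panels use the same aged AAV-EGFP mice.

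With AAV-B3GNT3 in aged mice, 16 of 10207 genes passed (0.157%), with 4 higher (0.0392%) and 12 lower (0.118%), and 18.2% did not overlap between the groups. The genes that rose were Bhlhe40, a circadian and activity-linked repressor (log2 fold change 1.56), Egr3 (1.42), Mthfd1l, a mitochondrial folate enzyme (1.23), and Ccnd2, a cyclin (1.15). Mthfd1l was at 22.0, 24.2 and 27.3 CPM in aged AAV-EGFP and 56.3, 60.2 and 59.1 in aged AAV-B3GNT3, while young AAV-EGFP lay at 28.3, 34.1 and 27.6. Its aged AAV-B3GNT3 mice were above the other 6, with adjusted p = 0.00642 against aged and 0.0247 against young AAV-EGFP by edgeR. The Mthfd1l call against young AAV-EGFP was lost under 10 of 21 settings. Bhlhe40 was at 8.46, 8.40 and 11.3 CPM in aged AAV-EGFP and 22.4, 31.2 and 31.9 in aged AAV-B3GNT3, and at 11.3, 14.8 and 15.9 in young AAV-EGFP, so its treated mice too were above the rest (adjusted p = 0.0204 against aged AAV-EGFP by edgeR).

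The named genes that fell with AAV-B3GNT3 were Fth1, the ferritin heavy chain (-2.14), Ubb, a ubiquitin gene (-1.76), Ndufa4 (-1.71), Fgf1 (-1.69), Cpa6, a carboxypeptidase (-1.66), Sdk1, a synaptic adhesion protein (-1.21), and Dcc, the netrin receptor (-0.83). Prr16 also fell, as did 4 genes with provisional names. With age, in the comparison that shares the aged AAV-EGFP mice, Fth1 (1.33), Ubb (1.38) and Sdk1 (0.91) had passed as higher. Fth1 was at 37.2, 93.4 and 62.3 CPM in aged AAV-EGFP and 12.4, 20.1 and 13.2 in aged AAV-B3GNT3. Cpa6 was at 99.0, 146 and 82.6 CPM against 39.7, 35.7 and 28.8, and young AAV-EGFP, at 72.3, 50 and 84.0, lay above the treated mice and overlapped aged AAV-EGFP. Dcc was at 1203, 1522 and 1226 CPM against 686, 721 and 817, and its young AAV-EGFP mice, at 957, 1129 and 1051, were between the aged groups. Fgf1 returned values of 20.7, 10.0 and 12.4 CPM in aged AAV-B3GNT3, around its young level. Each of the 11 named calls was lost under at least 1 setting, and 8, 7 and 7 of them without aged AAV-B3GNT3 replicate 2, aged AAV-B3GNT3 replicate 1 or aged AAV-EGFP replicate 2. With Tbr1 required 9 were lost, and with free RNA subtracted by the first and the narrower markers 9 and 8. The count itself ran from 4 (without aged AAV-B3GNT3 replicate 2) to 125 (without replicate 3 of that group), and DESeq2 gave 130.

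Of the genes the study follows in neurons, Ccnd2 passed, at 42.3, 44.0 and 78.3 CPM in aged AAV-EGFP and 118, 144 and 117 in aged AAV-B3GNT3, with no overlap. Foxo3, a forkhead factor, had a log2 fold change of 0.81 (adjusted p = 0.051), Rims4 0.65 and Smad1 0.04, none of which passed, and Wnt5a was too low to be tested. The study chose this list on these mice, so it is not independent evidence of a direction.

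Aged AAV-B3GNT3 against young AAV-EGFP gave 32 calls (0.314%), 24 higher (0.235%) and 8 lower (0.0784%), and 18.5% of genes did not overlap. Several genes stood apart from young AAV-EGFP in both aged groups. These were Dpp4, Prrt1 and Sema3e, and Nmnat3, at 10.7, 5.49 and 5.85 CPM in young AAV-EGFP, 26.2, 21.2 and 24.5 in aged AAV-EGFP and 19.9, 16.7 and 22.6 in aged AAV-B3GNT3. Zdhhc14, a palmitoyltransferase, was at 367, 329 and 429.6 CPM in young AAV-EGFP, 201, 229 and 209 in aged AAV-EGFP and 202, 232 and 197 in aged AAV-B3GNT3. Fstl5, a secreted follistatin-like protein, was lower still in the aged AAV-B3GNT3 mice, at 91.7, 98.9 and 86.5, then 61.8, 61.7 and 66.2, then 38.9, 39.0 and 47.4 CPM, with log2 fold changes against young of -0.54 and -1.13 (adjusted p = 0.0329 and 0.00219 by edgeR). It did not pass in aged AAV-B3GNT3 against aged AAV-EGFP, and its age call was lost under 9 of 21 settings. Myt1 (1.22), Abcb1b (1.27) and Washc3 (1.34) were higher than in young AAV-EGFP, and Zbtb40 (-1.55) and Pde10a (-0.88) lower. Abcb1b (0.93) and Washc3 (1.20) had also passed with age, in the comparison that shares the young mice. Those age calls were lost under 11 and 6 of 21 settings. The calls against young AAV-EGFP were lost under 15 of 20 settings for Washc3, 14 of 20 for Nmnat3, 11 of 20 for Zbtb40, 11 of 21 for Myt1 and for Abcb1b, and 8 of 21 for Pde10a. Pde10a is also on the list of striatal markers. The summed level of the 8 other genes of that list was 56.1 to 72.8 CPM in young AAV-EGFP mice, 51.0 to 65.9 in aged AAV-EGFP mice and 56.9 to 66.7 in aged AAV-B3GNT3 mice, so the groups overlapped without Pde10a. Leaving out 1 mouse gave 3 (without aged AAV-B3GNT3 replicate 1) to 63 calls (without replicate 1 of aged AAV-EGFP), and in the former case 12 of 13 named calls were lost. All 13 were lost with the first subtraction of free RNA and 9 with the narrower.

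**Figure D4:**
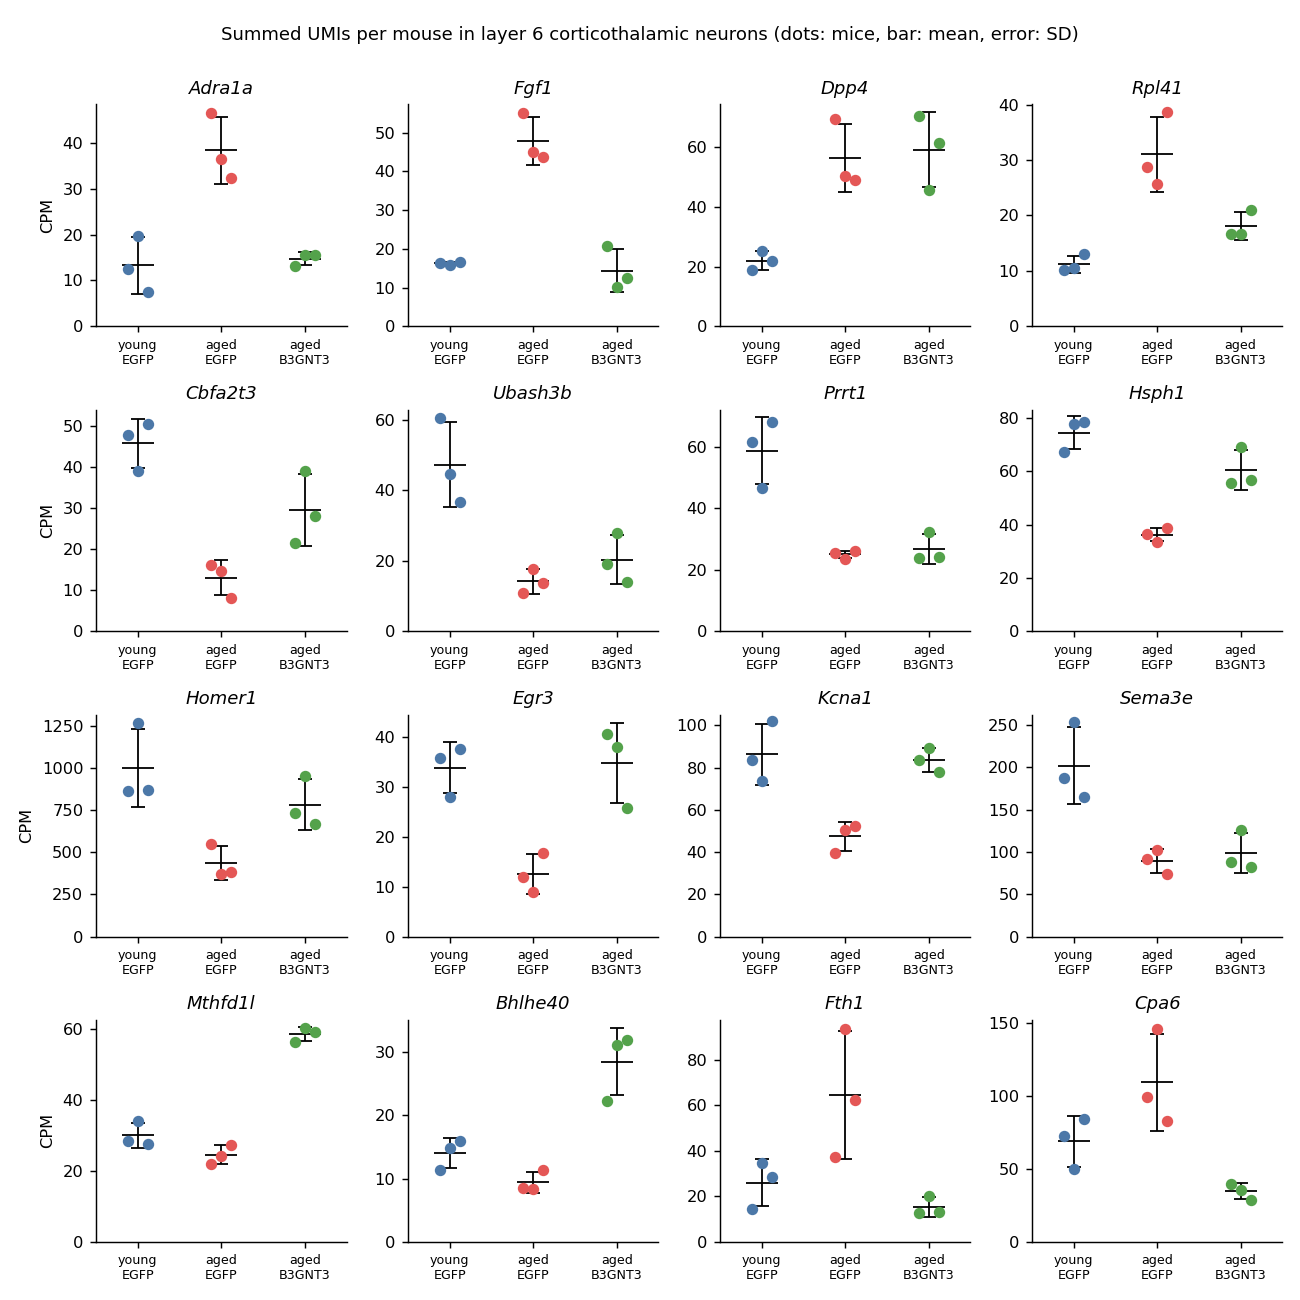
CPM per mouse (y axis, from 0) of 16 genes in layer 6 corticothalamic neurons of the 3 groups, with dots for mice, bars for means and error bars for SD (n = 3). Dpp4, Prrt1 and Sema3e differ from young in both aged groups, for Adra1a, Fgf1 and Egr3 the aged AAV-B3GNT3 mice overlap the young mice and not the aged AAV-EGFP mice, and Mthfd1l and Bhlhe40 are highest in all 3 aged AAV-B3GNT3 mice.

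Whether a change was larger or smaller here than in the other glutamatergic nuclei of the same mice was tested directly, as a difference of changes over 14089 genes with the mouse as a block. For age, 10 genes passed (0.071%, with 6.44% at an unadjusted p under 0.05), 3 with a higher (0.0213%) and 7 with a lower change here (0.0497%), of which 4 have provisional names, 1 of them (Gm15398) on the other strand within Pcdh15. Kcnh5, a voltage-gated potassium channel of the EAG family (chr12:74897220-75177332), was at 89.9, 95 and 114 CPM in young and 63.5, 64.7 and 52.2 in aged AAV-EGFP. In the other nuclei it was at 174, 156 and 164 CPM of unscaled totals in young and 179, 192 and 214 in aged AAV-EGFP. All aged mice were below the young ones here and above them there, with log2 fold changes of -0.74 (adjusted p = 0.0203) and 0.23 (adjusted p = 0.204) and a difference of -1.01 ± 0.14 (SE, adjusted p = 0.00166 by edgeR). Pcdh15, a protocadherin (chr10:73099342-74649737), was at 850, 834 and 593 against 395, 651 and 568 CPM here, with overlap, and at 1146, 986 and 858 against 1161, 1385 and 1371 CPM in the others (difference -0.90 ± 0.13, adjusted p = 0.00166 by edgeR).

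Sema3e differed as well (-0.85 ± 0.15), with a log2 fold change of -1.18 here and -0.31 in the others. Lin7a, a scaffold protein of synapses and junctions, was at 89.2, 116 and 96.1 against 89.7, 60.8 and 58.8 CPM here and differed by -0.86. Rmst, a long noncoding RNA, was at 107, 57.1 and 27.6 CPM in young and 16.9, 31.6 and 12.1 in aged AAV-EGFP, overlapping, and differed by -1.93 ± 0.32. Tshz2, the near-projecting marker, varied alongside within young mice, at 367, 179 and 49.3 CPM, and was at 50.8, 265 and 154 in aged AAV-EGFP, and its part in the Rmst values was not tested. Unc5d, which is 1 of the genes at a low level here, was at 123, 171 and 111 against 60.9, 97.8 and 34.7 CPM and differed by -1.38. With no upper limit on genes per nucleus, 5 of these 6 calls were lost, and Pcdh15 was the only 1 that passed under all 13 settings tried. Sema3e was also lost without aged AAV-EGFP replicate 2 or young AAV-EGFP replicates 1 or 2, Rmst without young replicate 1, Unc5d without aged replicate 3 or young replicate 2, and Lin7a without aged replicate 3.

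**Figure D5:**
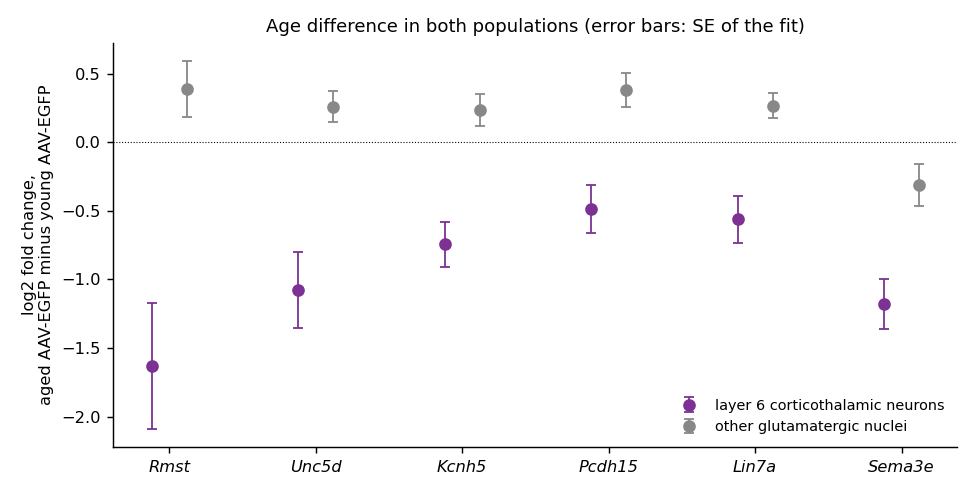
Log2 fold change with age (y axis, aged minus young AAV-EGFP) of 6 genes in layer 6 corticothalamic neurons and in the other glutamatergic nuclei, with error bars for the SE of each fit. Kcnh5 is at -0.74 against 0.23 and Sema3e at -1.18 against -0.31.

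In the other glutamatergic nuclei on their own, with larger sums, 9.97% of 15095 genes passed with age and 0.252% with AAV-B3GNT3. For most genes no difference between the populations was found. Homer1, for example, had a log2 fold change with age of -1.21 here and -0.70 in the others (difference -0.53 ± 0.13, adjusted p = 0.195 by edgeR), and Adra1a 1.54 and 0.43 (1.09 ± 0.28, adjusted p = 0.247). In the simulated test of this difference, with 1 dispersion set for all genes, 12% of changes of 2-fold and 94% of 4-fold were found. A miss therefore does not show that the populations changed alike. For AAV-B3GNT3 no gene passed the test of the difference with edgeR, with 747 of 14089 at an unadjusted p under 0.05 (5.30%). The smallest adjusted p among the named genes was that of Cpa6, 0.0729, with a change of -1.53 ± 0.26 relative to the other nuclei. It passed under 6 of 13 settings (adjusted p from 2.87e-09 to 0.525 by edgeR), among them without marked doublets, without the filter on low counts and without replicate 1 of any group. Bhlhe40 (1.26, adjusted p = 0.142) passed under 2 of 13, without the filter and without the gene limit. After Cpa6 came Homer1 (0.74 ± 0.13, adjusted p = 0.0982 by edgeR).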

How the data were processed

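Single-nucleus 3′ libraries (10x Genomics, nuclei sorted by Hoechst) were deposited by the authors as raw UMI counts per gene and nucleus in 1 filtered matrix per mouse, aligned to mm10 (GRCm38) with Cell Ranger, version 4.0.0 per the labels and 7.2.0 per the file headers. The study later removed free RNA with SoupX and doublets with DoubletFinder; the deposited matrices hold whole-number counts without those steps, and here doublets were scored and kept. The 9 libraries held 47332047 to 79964605 UMIs and 77823 barcodes, of which 2923 exceeded 5000 genes and 5 exceeded 10% mitochondrial UMIs.

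Counts were summed per mouse over the neurons selected, filtered with filterByExpr (minimum count 10), TMM-scaled and fitted with the quasi-likelihood test of edgeR 4.0.16 (R 4.3.3), two-sided, with Benjamini-Hochberg adjustment and a threshold of 0.05. SE values come from the F statistic. Levels of the marker genes and ratios between populations use unscaled totals. Differences between populations used 18 sums with the mouse as a block. Shares were compared with exact permutation tests. Other settings were DESeq2 1.42.0, size factors by RLE, all genes without a low-count filter, a looser (Hs3st4 3, Foxp2 2) and a stricter rule (8 and 5), a UMI of Tbr1 required, no gene limit, marked doublets removed (scored among 30 neighbours in 20 components), free RNA subtracted, only the compared groups, a replicate block and each mouse left out. A second subtraction of free RNA, scaled by 11 glial genes that neurons lack, was added after the first had been seen to rest on genes that neurons express. Both took the summed counts of all barcodes in a library as the profile of free RNA, so both also removed RNA of the neurons. The fit was tested on simulated data of 9909 genes: 43% of 2-fold and 99% of 4-fold changes were recovered for age, and 6.58% of calls were false. Every simulated gene had the same set dispersion of 0.05, changes were placed only in genes with a mean above 20 UMIs, and no mouse was made an outlier. These rates therefore need not hold for the real counts.

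The neurons and lists were chosen with earlier results of these data known. Named genes were the 10 largest rises and falls with age and the 6 largest in the other comparisons, among genes past the threshold with a mean of 20 UMIs per mouse and no overlap of groups, the 5 smallest p where fewer than 6 passed, the study's 6 neuronal genes and, per list, the 2 smallest p with age and those past the threshold. Genes with provisional names were counted only, and some results are not reported here. Positions and overlaps are from GENCODE vM21 (30934 of 31053 genes matched). Mice are named by group and replicate; the p-values measure the spread between these 9 mice.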

Additional observations from a re-analysis of the deposited data

Results flagged for a closer look

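A difference in the age change between layer 6 corticothalamic neurons and the other glutamatergic nuclei of the same mice, by the test of the difference itself, brought 6 named genes here. On the log2 scale the change here minus the change there was -1.93 for Rmst, -1.38 for Unc5d, -1.01 for Kcnh5, -0.90 for Pcdh15, -0.86 for Lin7a and -0.85 for Sema3e (adjusted p = 0.0109, 0.0303, 0.00166, 0.00166, 0.00811 and 0.0217 by edgeR). All 6 are negative. Of the 10 genes that passed, 3 had a higher change here, and those have provisional names. In the other nuclei the change was between 0.23 and 0.39 for 5 of the 6 named genes and -0.31 for Sema3e. In these neurons alone, Unc5d, Kcnh5 and Sema3e passed with age, and Rmst, Pcdh15 and Lin7a did not. The cause of these differences was not tested.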

How the results depend on the processing

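The number of genes called depended on the settings. For age, 423 calls became 106 with Tbr1 required, 28 and 169 with free RNA subtracted by the first and the narrower marker set, 888 with no filter on low counts, and 88 to 697 with 1 mouse left out. For AAV-B3GNT3, 16 became 130 with DESeq2, 3 with Tbr1 required, 3 and 5 with free RNA subtracted, 391 without the filter, 29 with only the compared groups, 47 under the stricter rule and 4 to 125 with 1 mouse left out. For aged AAV-B3GNT3 against young, 32 became 83 with DESeq2, 14 with Tbr1 required, 2 and 7 with free RNA subtracted, 334 without the filter, 16 with no gene limit, 59 with only the compared groups, 49 under the stricter rule and 3 to 63 with 1 mouse left out. The 10 differences with age became 18 without marked doublets, 111 without the filter, 3 with no gene limit and 10 to 42 with 1 mouse left out; the 0 differences with AAV-B3GNT3 became 3, 49, 4 and 0 to 2. Directions of all named genes held under every setting. The causes were not tested. Requiring Tbr1 left fewer UMIs (7439 genes tested) and also changed which neurons were counted, and the 2 cannot be told apart here. DESeq2 split its 285 age calls into 107 higher and 178 lower, and its 130 and 83 others into 44 and 86 and into 30 and 53.

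Same-numbered mice showed no pairing (correlations of deviations from -0.104 to 0.154). With the replicate number as a block, 461, 66 and 48 genes were called for age, AAV-B3GNT3 and aged AAV-B3GNT3 against young. It ended 1 named call for age (Syt6), 0 for AAV-B3GNT3 and 1 for aged AAV-B3GNT3 against young (Washc3, adjusted p = 0.0519 by edgeR). Where DESeq2 gave no adjusted p, the call was counted as neither kept nor lost.

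The share of glutamatergic nuclei gave an exact permutation p of 0.0536 under the stricter rule, 0.246 as a share of all nuclei (age difference -0.0681 percentage points) and 0.00714 to 0.0857 with 1 mouse left out. At equal depth it gave 0.868 when thinned to 3000 UMIs, where 6 to 12 neurons per mouse remained, and 0.0357 to 0.0714 with 1 mouse left out. The difference at equal depth between aged AAV-B3GNT3 and young, -0.115 points, ran from -1.04 to 0.744 and was 0.531 without aged AAV-B3GNT3 replicate 2 and 0.744 without young replicate 2. The differences in median UMIs ran from -562.7 to 1431 for AAV-B3GNT3, with -563 and -241 without its replicates 1 and 3 and -211 without aged AAV-EGFP replicate 2, and from -1396 to 597.5 against young, with 597.5 without aged AAV-B3GNT3 replicate 2. In the simulated test of age, at this depth and 3 mice per group and with 1 dispersion set for all genes, 43% of 2-fold changes were recovered.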
